A study of Danio rerio with 21 samples.

Results

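The 6 libraries described here are the control zebrafish collected at 35 and 45 days post-fertilization (dpf), named C35D-1 to C35D-3 and C45D-1 to C45D-3, of 21 libraries from 7 groups in the study. They were chosen by their labels, and every other control fish (C25D and C60D) or heat-exposed fish (T35D, T45D and T60D) appears only where it is named. All 6 came from whole wild-type fish of the AB strain, reared at 28 °C on one light cycle and descended from matings within one family, so C35D and C45D differed by age alone as far as the labels say. The study collected several fish at each age, and neither the sex of the fish nor the number pooled in a library is given in the sources used here. In the sex counts of the study, males were the minority of the control fish. The T groups shared the strain and the family and had been held at 35 °C from 25 to 35 dpf. T35D was collected at the end of that period, and T45D and T60D after the return to 28 °C.

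Zebrafish of domesticated strains carry no sex chromosome. Every juvenile first forms a gonad with early oocytes, the so-called juvenile ovary, and in future males these oocytes are lost while spermatogonia, meiotic cells and the somatic cells of a testis take their place. Egg coat (zona pellucida) genes are transcribed in growing oocytes, synaptonemal complex genes in meiotic germ cells, and axoneme genes in spermatids and in other ciliated cells. Over the same weeks the fish completes the change from larva to juvenile, in which scales and a layered skin form, adult haemoglobins and muscle proteins replace larval ones, and the adaptive immune system matures. The interval from 35 to 45 dpf falls within this period, and the question of the comparison was which genes rose and which fell in fish that had never been heated.

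The table held 26225 genes, and the expected counts of the 6 libraries added up to 12903571 at least and 15151303 at most. Values are given as CPM, counts divided by library totals that edgeR's TMM factors adjust, in the order of the library numbers. In CPM, 3 counts were worth 0.198 to 0.232 depending on the library. The top 10 genes held 10.99% to 23.2% of the counts. Markers of 16 tissues and cell types (4 genes each) were summed to check the label of whole fish. Those of muscle, heart, liver, pancreas, intestine, neurons, glia, blood, skin, bone, germ cells, gonadal somatic cells and leukocytes were present in all 6 libraries. Oocyte markers summed to 124, 425 and 17.8 CPM at 35 dpf and to 1.42, 2.14 and 2.23 CPM at 45 dpf. C35D-1 stood apart in the eye, with lens markers at 0.877 CPM and photoreceptor markers at 1.4 CPM, while the other 5 libraries had at least 123 and 492 CPM.

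C45D-3 did not vary on its own. Over 11105 genes with a mean of at least 100 counts, its share of counts was best matched by a weight of 0.499 on C45D-1 and the remainder on C45D-2, and its median squared deviation from that mixture was 0.615 times the sampling variance, where sampling noise alone gives 0.455. All 1106 of the 1106 genes that differed by more than 2-fold between C45D-1 and C45D-2 lay between them in C45D-3. C60D-3 had the same relation to C60D-1 and C60D-2, with a weight of 0.512, a deviation of 0.619 and 4038 of 4038 genes between. In the 15 libraries of the other groups the deviation ran from 2.12 to 155 and the share of genes between from 19.6% to 82.6%. C45D therefore holds 2 libraries that vary on their own, a test on all 6 takes the spread at 45 dpf to be smaller than it was, and list counts at an unadjusted p are given below with and without C45D-3. List counts at the adjusted p rest on all 6 libraries.

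**Figure D1:**
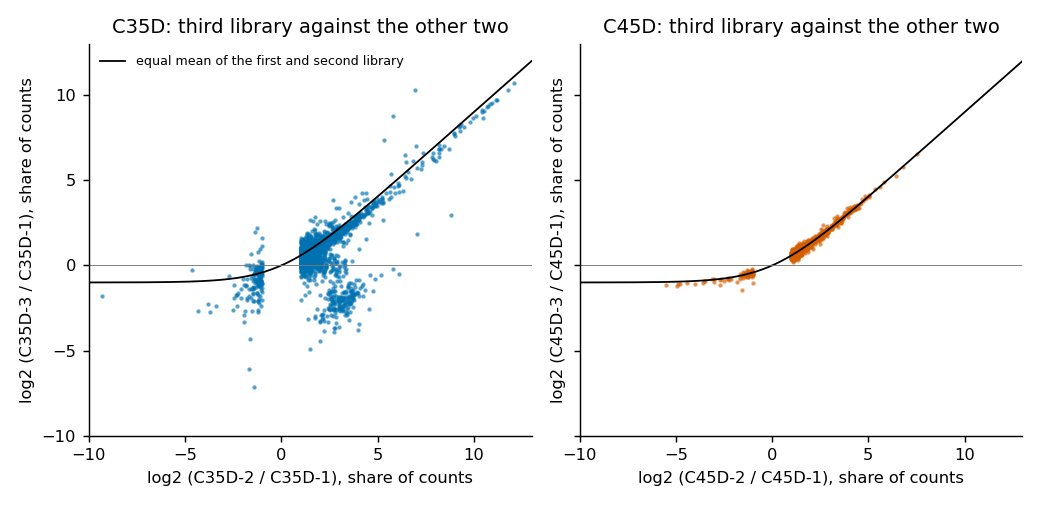
Each point is a gene that differed by more than 2-fold between the first and the second library of a group (2901 genes in C35D, 1106 in C45D), with the log2 ratio of the second to the first library on the x axis and of the third to the first on the y axis, as shares of counts. The black line is the equal mean of the first and second library; the C45D points lie along it, and the C35D points scatter around and away from it.

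Of 20642 genes with enough counts, edgeR called 310 (1.5%) higher and 733 (3.55%) lower at 45 dpf with an adjusted p of at most 0.05, and a gene is said to be called when it passed this test. At an unadjusted p of at most 0.05 there were 1997 (9.67%) higher and 2831 (13.7%) lower. Without C45D-3, edgeR called 1 gene (0.00475%) higher, the sulfotransferase sult2st3, and 0 lower of 21059, with 1160 (5.51%) higher and 1821 (8.65%) lower at an unadjusted p of at most 0.05. All 310 and all 733 genes called with 6 libraries were among these. The fits share 5 libraries, and C45D-3 is a mixture of the other C45D libraries, so this overlap is no separate support. DESeq2, run on the same 5 libraries after the data were seen, called 359 (1.72%) higher and 883 (4.24%) lower, which included 244 of the 310 and 651 of the 733. The counts of the 6-library test were 221 and 483 without C35D-1, 322 and 967 without C35D-2, 69 and 277 without C35D-3, 216 and 138 without C45D-1, and 1 and 0 without C45D-2. The median log2 fold change of all genes was -0.01, and 0.14 when libraries were scaled by their totals alone. The same scaling lowered the calls to 19 and 34. Most genes below carry 2 adjusted p-values, that of edgeR with 6 libraries and that of DESeq2 with the 5 that exclude C45D-3, and log2 fold changes are those of the 6-library fit. These p-values are not separate support for a gene, since the fits share libraries and the 6-library test takes the 45 dpf spread as too small. By edgeR without C45D-3, every gene tested except sult2st3 had an adjusted p above 0.05, while DESeq2 called many more on those libraries. Replicates are those the labels name, and p-values measure the spread between these libraries only. The shares of all genes given here are the background for the list counts below. Many genes below were chosen among those whose ages did not overlap, so that trait is no further result for them. The share of all genes without overlap is not given here. C45D-3, as a mixture of the other C45D libraries, adds little to such a separation. RNA from a whole fish does not separate fewer cells of a type from less RNA in each cell.

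The egg coat and oocyte genes were lower at 45 dpf in a larger share of members than any other of the 31 lists. Of this list, 42 of 51 members had enough counts, 0 were called higher and 20 lower, and the unadjusted p was at most 0.05 in 0 higher and 36 lower members, or in 0 and 35 of 44 without C45D-3. The median log2 fold change was -6.79, and -6.74 with the 3 members that had 3 counts or fewer at 45 dpf placed at that bound. With 1 library left out, 30 to 41 members were lower and 0 higher at that p, with the median between -7.32 and -5.31.

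The gene zp2.1, which encodes an egg coat protein, stood at 211, 353 and 20.6 CPM at 35 dpf and 0.0792, 0.65 and 0.647 CPM at 45 dpf. In zp2.1 the log2 fold change came to -8.67 ± 1.3004 SE (adjusted p = 0.0266 by edgeR and 1.08e-06 by DESeq2). The gene zp3b, another coat protein gene, stood at 94, 268 and 11 CPM at 35 dpf and 0.95, 1.56 and 1.44 CPM at 45 dpf. In zp3b the log2 fold change came to -6.55 ± 1.19 SE (adjusted p = 0.036 by edgeR and 6.17e-08 by DESeq2). In both genes each 35 dpf library lay above each 45 dpf library, with C35D-2 highest and C35D-3 lowest at 35 dpf. The other zp2 and zp3 genes tested shared this order, and since zp2 and zp3 genes lie in families of near-identical copies whose reads RSEM divides, the values of single copies are uncertain. The gene zp3.1 was at 65.3, 327 and 12.7 CPM at 35 dpf and had 3 counts in all at 45 dpf, so no fold change is given.

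The gene buc, which organizes the Balbiani body of the early oocyte, was at 28.3, 116 and 5.51 CPM at 35 dpf and 0.0792, 0.52 and 0.359 CPM at 45 dpf. In buc the log2 fold change came to -7.20 ± 1.34 SE (adjusted p = 0.0374 by edgeR and 2.74e-07 by DESeq2). The gene zar1, an RNA-binding factor stored in the oocyte, was at 27.8, 139 and 5.88 CPM at 35 dpf and 0.317, 0.455 and 0.503 CPM at 45 dpf. In zar1 the log2 fold change came to -7.05 ± 1.33 SE (adjusted p = 0.0378 by edgeR and 9.20e-08 by DESeq2). The gene figla, a transcription factor that starts the egg coat programme, was at 1.67, 15.8 and 0.809 CPM at 35 dpf and had 2 counts in all at 45 dpf. These regulators were thus high in the same libraries as the coat proteins, with C35D-2 highest and C35D-3 lowest.

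The 12 called genes with the largest change in each direction were drawn without clone or locus names and without genes whose ages overlapped. Among the 12 so drawn for the largest decrease were 9 zp genes and 3 genes whose names do not tell of the egg, a2m3b of the alpha-2-macroglobulin family at 36.6, 141 and 11 CPM at 35 dpf and 0.0792, 0.195 and 0.0719 CPM at 45 dpf, cldnd of the claudin family of tight junction proteins at 42.1, 195 and 5.88 CPM at 35 dpf and 0.237, 0.13 and 0.0719 CPM at 45 dpf, and qdprb.4 at 16.5, 99.9 and 2.79 CPM at 35 dpf with 3 counts at 45 dpf. All of these had their highest value in C35D-2. The gene lhx8a, an oocyte transcription factor, was at 4.03, 28.4 and 1.54 CPM at 35 dpf and 0.792, 1.49 and 1.29 CPM at 45 dpf and was not called. In lhx8a the log2 fold change came to -3.24 ± 1.08 SE (edgeR adjusted p = 0.135). The oocyte genes bmp15, gdf9 and nobox, signals and a regulator of the oocyte, had too few counts to be tested: bmp15 was at 0.614, 5.72 and 0.368 CPM at 35 dpf and 0, 0.13 and 0 CPM at 45 dpf, and gdf9 at 0.526, 2.8 and 0.0735 CPM at 35 dpf and 0.0792, 0.065 and 0.288 CPM at 45 dpf.

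Of the genes shared by male and female germ cells, ddx4, piwil1 and dazl were not called. The gene ddx4 (vasa), an RNA helicase of germ plasm, was at 15.9, 40.4 and 13.2 CPM at 35 dpf and 4.59, 37.5 and 23.1 CPM at 45 dpf. In ddx4 the log2 fold change came to -0.09 ± 0.74 SE (edgeR adjusted p = 0.952). The gene piwil1, a PIWI protein that silences transposons with piRNAs, was at 17.1, 44.6 and 13.1 CPM at 35 dpf and 7.12, 59.6 and 38.6 CPM at 45 dpf. In piwil1 the log2 fold change came to 0.49 ± 0.76 SE (edgeR adjusted p = 0.72). The gene dazl, an RNA-binding protein of germ cells, was at 3.16, 16.3 and 2.06 CPM at 35 dpf and 1.74, 16.4 and 10.8 CPM at 45 dpf. In dazl the log2 fold change came to 0.42 ± 0.96 SE (edgeR adjusted p = 0.818). The 2 ages overlapped in all of these genes, C35D-2 was the highest and C35D-3 the lowest 35 dpf library as in the egg coat genes, C45D-1 was the lowest of the 6 libraries in each, and the sign of the change rested on single libraries. The log2 fold change of ddx4 was 0.56 without C35D-2 and 0.38 without C45D-1, that of dazl was -0.03 without C35D-3 and -0.20 without C45D-2, and that of piwil1 was -0.12 without C45D-2.

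Of the germ cell and piRNA list, 30 of 32 members had enough counts, 1 was called higher and 2 lower, and the unadjusted p was at most 0.05 in 1 higher and 2 lower members, or in 1 and 2 of 30 without C45D-3. Its median was -0.10, and 0.01 with library totals as the only scaling. The members called were ca15b, dnd1 and zbtb16a. The gene ca15b, a carbonic anhydrase gene known from zebrafish primordial germ cells, was at 18.6, 108 and 3.01 CPM at 35 dpf and 0.317, 0.39 and 0.288 CPM at 45 dpf. In ca15b the log2 fold change came to -6.99 ± 1.48 SE (adjusted p = 0.0481 by edgeR and 2.75e-06 by DESeq2). The gene dnd1, which protects germ plasm RNAs, was at 3.94, 10.6 and 1.62 CPM at 35 dpf and 0.158, 0.39 and 0.288 CPM at 45 dpf. In dnd1 the log2 fold change came to -4.22 ± 0.82 SE (adjusted p = 0.0398 by edgeR and 0.00122 by DESeq2). Both had the library order of the egg coat genes at 35 dpf. The gene zbtb16a, a zinc finger repressor found in spermatogonia and in many other tissues, was higher at 11.3, 19.6 and 17.5 CPM at 35 dpf and 52, 54.6 and 49.5 CPM at 45 dpf. In zbtb16a the log2 fold change came to 1.69 ± 0.22 SE (adjusted p = 0.022 by edgeR and 2.76e-05 by DESeq2).

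Of the meiotic and sperm genes, 5 were called higher at 45 dpf by the 6-library test. Of the members tested, 23 of 26 in the meiotic and 27 of 29 in the sperm list had a log2 fold change above 0. In the meiotic list, 26 of 32 members had enough counts, 2 were called higher and 0 lower, and the unadjusted p was at most 0.05 in 16 higher and 1 lower members, or in 12 and 1 of 26 without C45D-3, with a median of 1.85. The genes called were sycp3 and msh4. The gene sycp3, a lateral element protein of the synaptonemal complex, was at 0.0877, 0.584 and 0.294 CPM at 35 dpf and 1.98, 8.12 and 3.81 CPM at 45 dpf. In sycp3 the log2 fold change came to 3.74 ± 0.74 SE (adjusted p = 0.0426 by edgeR and 0.00204 by DESeq2). The gene msh4, which acts at crossovers, was at 1.14, 1.93 and 1.69 CPM at 35 dpf and 3.56, 8.96 and 6.61 CPM at 45 dpf. In msh4 the log2 fold change came to 1.99 ± 0.41 SE (adjusted p = 0.0456 by edgeR and 0.0222 by DESeq2). The gene sycp1 joins the paired chromosomes and was at 7.8, 6.13 and 3.75 CPM at 35 dpf and 5.22, 65.7 and 38.7 CPM at 45 dpf, with C45D-1 inside the 35 dpf range. In sycp1 the log2 fold change came to 2.64 ± 0.82 SE (edgeR adjusted p = 0.118). The gene dmc1, the meiotic recombinase, had too few counts in too many libraries to be tested and was at 0.351, 0 and 0.515 CPM at 35 dpf and 0.633, 5.33 and 3.31 CPM at 45 dpf.

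In the spermatid and sperm list, 29 of 37 members had enough counts, 3 were called higher and 0 lower, and the unadjusted p was at most 0.05 in 22 higher and 0 lower members, or in 18 and 0 of 29 without C45D-3, with a median of 2.12. The gene tekt1, a tektin of the flagellar microtubules, was at 0.877, 1.11 and 1.4 CPM at 35 dpf and 3.17, 25.6 and 14.7 CPM at 45 dpf. In tekt1 the log2 fold change came to 3.67 ± 0.75 SE (adjusted p = 0.0445 by edgeR and 9.83e-04 by DESeq2). The gene cfap53, a cilia and flagella protein, was at 0.0877, 0.233 and 0.221 CPM at 35 dpf and 0.792, 5.91 and 4.6 CPM at 45 dpf. In cfap53 the log2 fold change came to 4.28 ± 0.86 SE (adjusted p = 0.0431 by edgeR and 0.00655 by DESeq2). The gene meig1, needed in mice for sperm formation, was at 0.789, 0.7 and 0.515 CPM at 35 dpf and 1.98, 3.9 and 2.3 CPM at 45 dpf. In meig1 the log2 fold change came to 2.02 ± 0.40 SE (adjusted p = 0.0416 by edgeR and 0.0288 by DESeq2). In sycp3, msh4, tekt1, cfap53 and meig1 every 45 dpf library lay above every 35 dpf library, and C45D-2 lay above C45D-1 each time. Without C45D-2 the members higher at an unadjusted p of at most 0.05 were 13 of the sperm list and 10 of the meiotic list, and without C45D-1 they were 29 and 24.

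Of the testis somatic and androgen list, 1 member was called higher, the hormone gene insl3, and 2 lower, which are named further below. The gene insl3, a hormone of Leydig cells, had 3 counts in all at 35 dpf and stood at 0.871, 7.4 and 5.25 CPM at 45 dpf (adjusted p = 0.0429 by edgeR with 6 libraries and 0.0028 by DESeq2 with 5). The gene amh, the anti-Müllerian hormone of Sertoli cells, was at 0.614, 0.233 and 1.18 CPM at 35 dpf and 1.98, 14 and 8.91 CPM at 45 dpf. In amh the log2 fold change came to 3.64 ± 0.85 SE (adjusted p = 0.0606 by edgeR and 0.00941 by DESeq2). It passed by DESeq2 alone, as did dmrt1. The gene dmrt1, a male regulator, was at 0.964, 0.467 and 1.25 CPM at 35 dpf and 1.66, 12.6 and 7.62 CPM at 45 dpf. In dmrt1 the log2 fold change came to 3.04 ± 0.77 SE (adjusted p = 0.0719 by edgeR and 0.0265 by DESeq2). In each of these 3 genes C45D-1 was the 45 dpf library closest to the 35 dpf libraries.

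The gene gsdf, a growth factor of gonadal somatic cells, was at 32.5, 16.7 and 33.4 CPM at 35 dpf and 37.2, 69.8 and 55.5 CPM at 45 dpf and was not called. In gsdf the log2 fold change came to 0.98 ± 0.34 SE (edgeR adjusted p = 0.146). The gene sox9a, a Sertoli cell factor that cartilage also uses, was at 2.63, 4.43 and 5.15 CPM at 35 dpf and 3.01, 4.29 and 3.95 CPM at 45 dpf, with the ages overlapping. Over the testis somatic and androgen list, 29 of 38 members had enough counts, 1 was called higher and 2 lower, and the unadjusted p was at most 0.05 in 10 higher and 4 lower members, or in 4 and 4 of 30 without C45D-3. The median was 0.22, with 17 members above and 12 below 0, so the list as a whole was mixed in direction. The genes called lower, wt1b and nr0b2a, also serve outside the gonad, wt1b in kidney podocytes and nr0b2a in the liver. Of the ovary somatic and estrogen list, 31 of 38 members had enough counts, 0 were called higher and 0 lower, and the unadjusted p was at most 0.05 in 2 higher and 5 lower members, or in 0 and 3 of 32 without C45D-3, with a median of 0.13. The gene cyp19a1a, the gonadal aromatase, had 10 counts in all at 35 dpf and 3 at 45 dpf, so it lay near the floor at both ages. The gene foxl2a, its regulator, was at 0.175, 1.69 and 0.588 CPM at 35 dpf and 0.317, 0.39 and 0.216 CPM at 45 dpf.

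The vitellogenins, yolk proteins that the liver makes under estrogen, gave no call. Of this list, 3 of 7 members had enough counts, 0 were called higher and 0 lower, and the unadjusted p was at most 0.05 in 0 higher and 0 lower members, or in 0 and 0 of 3 without C45D-3. The median was 1.23, and the members higher at that p were 5 without C45D-1, 3 without C35D-1, 1 without C35D-3 and 0 without C35D-2 or C45D-2. These counts are not out of the 3 members above, since the filter for counts was applied anew with each library left out. Of the members, vtg5 was at 3.68, 3.09 and 2.94 CPM at 35 dpf and 1.19, 9.94 and 6.25 CPM at 45 dpf, with C45D-1 below and C45D-2 above the 35 dpf range. The gonadotropin genes fshb and lhb had 1 and 5 counts in all at 35 dpf and 4 and 5 at 45 dpf. In the pituitary and gonadotropin list, 12 of 37 members had enough counts, 0 were called higher and 1 lower, and the unadjusted p was at most 0.05 in 0 higher and 2 lower members, or in 0 and 2 of 13 without C45D-3. The member called was igfbp2a, an IGF-binding protein of the liver, at 80.8, 77.5 and 91 CPM at 35 dpf and 40.5, 42.1 and 46 CPM at 45 dpf. In igfbp2a the log2 fold change came to -0.96 ± 0.14 SE (adjusted p = 0.0269 by edgeR and 7.75e-04 by DESeq2).

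**Figure D2:**
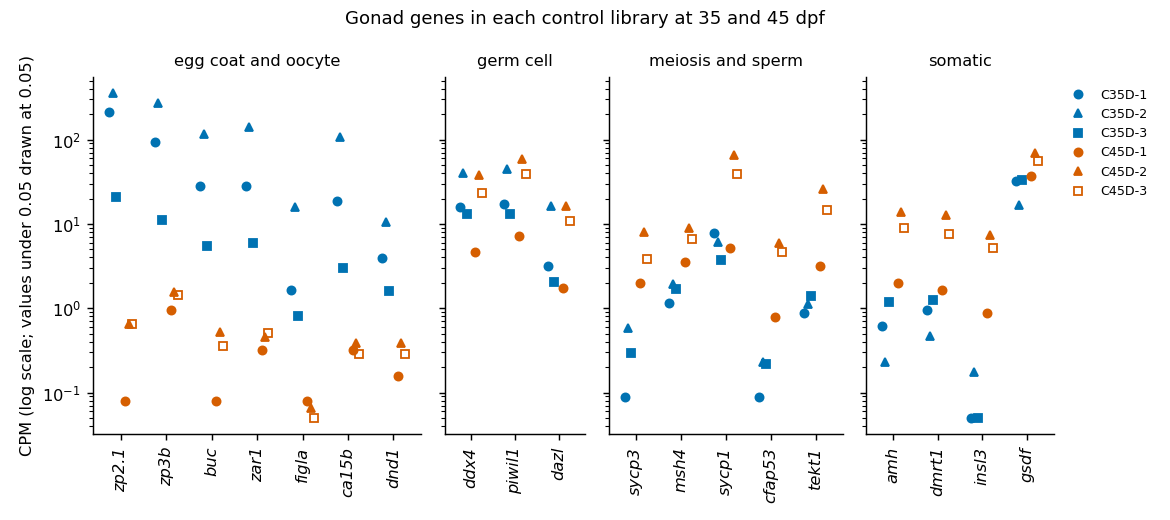
CPM on a log axis (values under 0.05 are drawn at 0.05) for 19 gonad genes in each library, 35 dpf in blue and 45 dpf in orange, with C45D-3, the mixture of the other C45D libraries, as open squares. The 7 genes of the egg coat and oocyte panel on the left have all 35 dpf libraries above all 45 dpf libraries. That panel includes ca15b and dnd1, the members of the germ cell and piRNA list that were called lower. The 3 genes of the germ cell panel, ddx4, piwil1 and dazl, overlap. The genes of the right panels have all 45 dpf libraries on top except sycp1. Several of the genes that do not overlap were chosen for that, so the separation is no further result for them.

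Of the intestine list, 12 genes were called lower at 45 dpf by the 6-library test, and 35 of 36 members had a log2 fold change below 0. In this list, 36 of 36 members had enough counts, 0 were called higher and 12 lower, and the unadjusted p was at most 0.05 in 0 higher and 25 lower members, or in 0 and 23 of 36 without C45D-3, with a median of -1.66, and with 1 library left out 23 to 27 were lower and 0 higher at that p. The gene fabp1b.1, a fatty acid binding protein of enterocytes, was at 809, 396 and 534 CPM at 35 dpf and 43.8, 95 and 76.6 CPM at 45 dpf. In fabp1b.1 the log2 fold change came to -3.01 ± 0.40 SE (adjusted p = 0.0222 by edgeR and 3.59e-07 by DESeq2). The gene apoa4b.2, an apolipoprotein secreted during fat absorption, was at 3965, 2150.0 and 2678 CPM at 35 dpf and 203, 444 and 351 CPM at 45 dpf. In apoa4b.2 the log2 fold change came to -3.14 ± 0.41 SE (adjusted p = 0.022 by edgeR and 2.37e-08 by DESeq2). The gene vil1, villin of the brush border, was at 531, 297 and 312 CPM at 35 dpf and 59.3, 125 and 92.6 CPM at 45 dpf. In vil1 the log2 fold change came to -2.04 ± 0.36 SE (adjusted p = 0.0338 by edgeR and 0.00118 by DESeq2). The 2 ages did not overlap in these genes, and C45D-1 was the lowest library in each.

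The gene mogat2, which rebuilds fat in the absorbing cell, was at 41.5, 27.19 and 32.9 CPM at 35 dpf and 5.38, 6.82 and 6.9 CPM at 45 dpf. In mogat2 the log2 fold change came to -2.41 ± 0.21 SE (adjusted p = 0.016 by edgeR and 7.13e-09 by DESeq2). The gene hnf4b, a nuclear receptor of the gut and liver, was at 13.1, 8.58 and 12.4 CPM at 35 dpf and 1.66, 2.4 and 1.94 CPM at 45 dpf. In hnf4b the log2 fold change came to -2.49 ± 0.27 SE (adjusted p = 0.0187 by edgeR and 4.35e-06 by DESeq2). Both were chosen after their values were seen, as were nr0b2a, abcg5, abcg8, acad11, sult2st2, cyp8b1.1, cyp8b1.2, gck, gstk4 and mhc2daa below. Of the pancreatic digestive enzymes, 37 of 38 members had enough counts, 0 were called higher and 0 lower, and the unadjusted p was at most 0.05 in 1 higher and 3 lower members, or in 0 and 2 of 37 without C45D-3, and the median of -0.62 became 0.07 without C35D-1. Pancreas markers summed to 2494, 949 and 618 CPM at 35 dpf and 128, 1312 and 839 CPM at 45 dpf, so C45D-1 alone was low.

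Of the liver plasma protein and complement list, 106 of 108 members had enough counts, 1 was called higher and 24 lower, and the unadjusted p was at most 0.05 in 3 higher and 74 lower members, or in 1 and 52 of 107 without C45D-3, with a median of -0.89. Liver markers summed to 22297, 16212 and 20248 CPM at 35 dpf and to 6953, 11384 and 9273 CPM at 45 dpf, and intestine markers to 2556, 1326 and 1583 CPM and 227, 543 and 407 CPM, so each 45 dpf library lay below each 35 dpf library for both organs. The part of these organs in the bile acid and sterol genes was not tested. The gene gys2, the glycogen synthase of the liver, was at 50.8, 45.7 and 48.3 CPM at 35 dpf and 17.8, 22.4 and 21.3 CPM at 45 dpf. In gys2 the log2 fold change came to -1.23 ± 0.15 SE (adjusted p = 0.0214 by edgeR and 1.61e-04 by DESeq2). The gene ttr, a plasma carrier of thyroid hormone, was at 90.2, 72.6 and 74.3 CPM at 35 dpf and 30.8, 37.4 and 29.9 CPM at 45 dpf. In ttr the log2 fold change came to -1.27 ± 0.17 SE (adjusted p = 0.022 by edgeR and 8.42e-04 by DESeq2).

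Of the genes of bile acid and sterol metabolism some fell and others rose, also within one family. The gene cyp7a1, the rate-limiting enzyme of bile acid synthesis, was at 41.3, 34.2 and 38.4 CPM at 35 dpf and 11.8, 14.7 and 12.4 CPM at 45 dpf. In cyp7a1 the log2 fold change came to -1.55 ± 0.15 SE (adjusted p = 0.0175 by edgeR and 1.74e-05 by DESeq2). The gene nr0b2a, a nuclear receptor that bile acids induce in mammals, was at 81.5, 41 and 64.8 CPM at 35 dpf and 1.27, 2.21 and 2.88 CPM at 45 dpf. In nr0b2a the log2 fold change came to -4.87 ± 0.40 SE (adjusted p = 0.0138 by edgeR and 9.13e-22 by DESeq2). Together abcg5 and abcg8 form the pump that exports sterols into bile and gut, and abcg5 was at 39.2, 37.3 and 39.8 CPM at 35 dpf and 4.99, 8.57 and 6.9 CPM at 45 dpf. In abcg5 the log2 fold change came to -2.50 ± 0.22 SE (adjusted p = 0.016 by edgeR and 2.73e-10 by DESeq2). The gene abcg8 was at 40.9, 28.1 and 36.9 CPM at 35 dpf and 7.05, 8.64 and 7.62 CPM at 45 dpf. In abcg8 the log2 fold change came to -2.18 ± 0.19 SE (adjusted p = 0.016 by edgeR and 9.20e-08 by DESeq2). The 4 genes were lower in every 45 dpf library than in any 35 dpf library.

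The gene sult2st3, a cytosolic sulfotransferase, showed the opposite change, at 8.33, 7.47 and 6.54 CPM at 35 dpf and 184, 206 and 198 CPM at 45 dpf. In sult2st3 the log2 fold change came to 4.72 ± 0.18 SE (adjusted p = 0.00104 by edgeR and 9.03e-65 by DESeq2). It was the gene that edgeR called without C45D-3 (adjusted p = 0.0297) and also without C45D-2. Its family member sult2st2 was lower, at 46.8, 52.9 and 57.7 CPM at 35 dpf and 14.3, 18.6 and 16.7 CPM at 45 dpf. In sult2st2 the log2 fold change came to -1.66 ± 0.16 SE (adjusted p = 0.0175 by edgeR and 3.38e-07 by DESeq2). The cyp8b1 genes, which encode sterol 12-alpha-hydroxylases, divided in the same way. The gene cyp8b1.1 was at 48.6, 39.2 and 36.9 CPM at 35 dpf and 14.3, 20.3 and 17.9 CPM at 45 dpf. In cyp8b1.1 the log2 fold change came to -1.24 ± 0.19 SE (edgeR adjusted p = 0.027). The gene cyp8b1.2 was at 4.65, 2.04 and 2.79 CPM at 35 dpf and 65.1, 50.5 and 54.6 CPM at 45 dpf. In cyp8b1.2 the log2 fold change came to 4.18 ± 0.33 SE (adjusted p = 0.012 by edgeR and 3.13e-16 by DESeq2). The gene cyp8b1.3 was at 0.877, 2.68 and 4.56 CPM at 35 dpf and 57.9, 60 and 60.8 CPM at 45 dpf. In cyp8b1.3 the log2 fold change came to 4.44 ± 0.51 SE (adjusted p = 0.0209 by edgeR and 2.73e-10 by DESeq2). Reads that fit more than one copy of these families were divided by RSEM, and the split between copies is uncertain to that extent.

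In the cholesterol synthesis list, 26 of 27 members had enough counts, 1 was called higher and 0 lower, and the unadjusted p was at most 0.05 in 8 higher and 3 lower members, or in 6 and 1 of 26 without C45D-3, with a median of 0.22. The member called was hsd17b7, a ketosteroid reductase of this pathway, at 10.3, 10.7 and 13.4 CPM at 35 dpf and 64.8, 58.2 and 56.1 CPM at 45 dpf. In hsd17b7 the log2 fold change came to 2.38 ± 0.16 SE (adjusted p = 0.00737 by edgeR and 3.45e-15 by DESeq2). The gene insig1, which holds back the pathway when sterols are plentiful, was at 4.65, 8.34 and 7.42 CPM at 35 dpf and 11.3, 17.8 and 13.1 CPM at 45 dpf and fdps, an early enzyme, at 17.2, 25.7 and 18.1 CPM at 35 dpf and 31, 40.7 and 35.4 CPM at 45 dpf. Neither was called (0.0839 and 0.0711 as edgeR adjusted p). The gene acad11, an acyl-CoA dehydrogenase, was lower at 52.8, 49.5 and 52 CPM at 35 dpf and 13, 11.9 and 13 CPM at 45 dpf. In acad11 the log2 fold change came to -2.03 ± 0.13 SE (adjusted p = 0.00737 by edgeR and 1.36e-13 by DESeq2). The gene gck, the glucokinase of the liver, was at 40, 52.3 and 22 CPM at 35 dpf and 118, 222 and 180.2 CPM at 45 dpf. In gck the log2 fold change came to 2.19 ± 0.38 SE (adjusted p = 0.0337 by edgeR and 7.79e-04 by DESeq2).

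Of the skin genes, 7 were called higher at 45 dpf by the 6-library test, and 40 of 51 members of their list had a log2 fold change above 0. Of the skin and keratin list, 51 of 51 members had enough counts, 7 were called higher and 1 lower, and the unadjusted p was at most 0.05 in 22 higher and 4 lower members, or in 18 and 2 of 51 without C45D-3, with a median of 0.55. The gene evpla, an envoplakin of the cell envelope, was at 72.7, 87.4 and 90 CPM at 35 dpf and 261, 232 and 255 CPM at 45 dpf. In evpla the log2 fold change came to 1.58 ± 0.17 SE (adjusted p = 0.0179 by edgeR and 1.01e-08 by DESeq2). The gene ppl, periplakin, was at 162, 141 and 158 CPM at 35 dpf and 322, 302 and 324 CPM at 45 dpf. In ppl the log2 fold change came to 1.04 ± 0.16 SE (adjusted p = 0.0268 by edgeR and 4.11e-04 by DESeq2). The gene tgm1, a transglutaminase that crosslinks such proteins in mammalian epidermis, was at 9.38, 11 and 13 CPM at 35 dpf and 27.4, 23.2 and 28.9 CPM at 45 dpf. In tgm1 the log2 fold change came to 1.25 ± 0.18 SE (adjusted p = 0.0256 by edgeR and 0.00324 by DESeq2). The gene krt92, a keratin, was the member called lower, at 332, 241 and 257 CPM at 35 dpf and 95.5, 117 and 112 CPM at 45 dpf. In krt92 the log2 fold change came to -1.35 ± 0.20 SE (adjusted p = 0.0263 by edgeR and 3.81e-04 by DESeq2). Skin markers summed to 6965, 6134 and 8087 CPM at 35 dpf and 9595, 8215 and 9206 CPM at 45 dpf. Both krt95 and tgm1l2, of the keratin and transglutaminase families, were among the 12 genes drawn for the largest increase. The gene krt95 was at 0.263, 0.408 and 0.147 CPM at 35 dpf and 1.19, 20.5 and 12.1 CPM at 45 dpf. In krt95 the log2 fold change came to 5.29 ± 1.0972 SE (adjusted p = 0.0459 by edgeR and 2.81e-04 by DESeq2). The gene tgm1l2 was at 4.65, 2.74 and 1.4 CPM at 35 dpf and 10.5, 159 and 103 CPM at 45 dpf. In tgm1l2 the log2 fold change came to 4.97 ± 1.02 SE (adjusted p = 0.0454 by edgeR and 8.17e-05 by DESeq2). In both, C45D-2 was far above C45D-1, while the skin markers summed highest in C45D-1. Whether the RNA of krt95 and tgm1l2 came from skin was not tested.

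Of the genes of antigen presentation, 5 rose. In the lymphocyte and antigen presentation list, 51 of 65 members had enough counts, 5 were called higher and 0 lower, and the unadjusted p was at most 0.05 in 10 higher and 2 lower members, or in 8 and 0 of 51 without C45D-3, with a median of 0.23. The gene cd74a, the invariant chain of MHC class II, was at 128, 98.8 and 133 CPM at 35 dpf and 276, 376 and 322 CPM at 45 dpf. In cd74a the log2 fold change came to 1.44 ± 0.21 SE (adjusted p = 0.0263 by edgeR and 1.89e-04 by DESeq2). The gene mhc2daa, a class II chain, was at 34, 36.4 and 54.7 CPM at 35 dpf and 178, 161 and 164 CPM at 45 dpf. In mhc2daa the log2 fold change came to 2.01 ± 0.22 SE (adjusted p = 0.02 by edgeR and 2.11e-07 by DESeq2). The gene psmb8a, a subunit of the immunoproteasome, was at 7.89, 10.2 and 7.28 CPM at 35 dpf and 16.1, 22.5 and 20.9 CPM at 45 dpf. In psmb8a the log2 fold change came to 1.23 ± 0.21 SE (adjusted p = 0.0316 by edgeR and 0.0133 by DESeq2). The gene psmb13a, another of its subunits, and tap2a, which carries peptides to class I, were higher by 1.2041 and 1.87 on the log2 scale and were called too. Leukocyte markers, which include cd74a, summed to 206, 166 and 189 CPM at 35 dpf and 327, 439 and 379 CPM at 45 dpf.

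**Figure D3:**
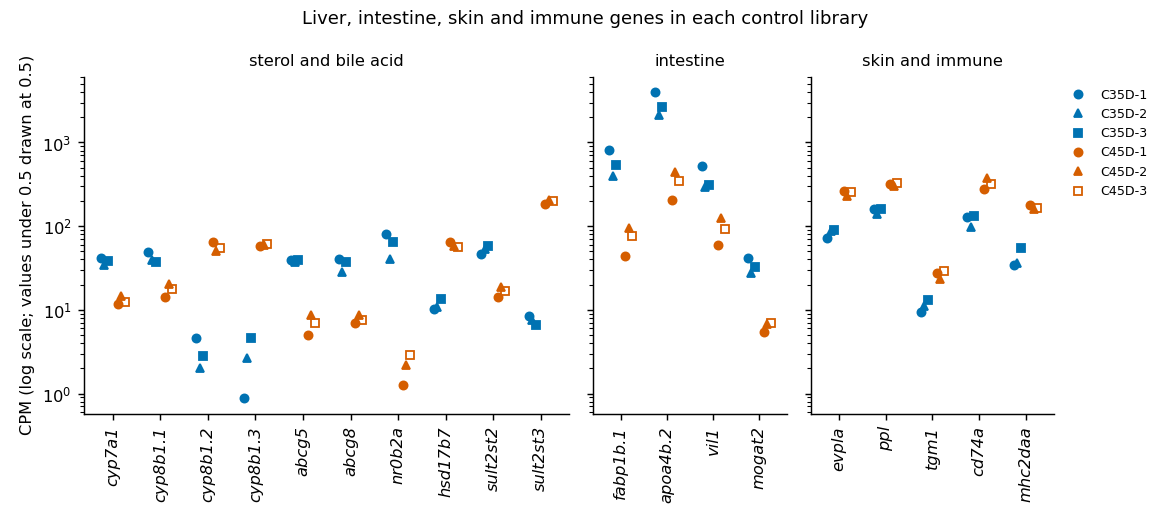
CPM on a log axis (values under 0.5 are drawn at 0.5) for 19 genes in each library, 35 dpf in blue and 45 dpf in orange, with C45D-3 as open squares. Within the sterol and bile acid panel cyp7a1, cyp8b1.1, abcg5, abcg8, nr0b2a and sult2st2 are lower at 45 dpf and cyp8b1.2, cyp8b1.3, hsd17b7 and sult2st3 higher. The ages do not overlap in any gene shown, but many of these genes were chosen for that or after their values were seen.

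In the fast muscle list 2 of 85 members were called higher and 2 lower. These shares were near the 1.5% and 3.55% of all genes, so the 4 genes are described singly. Both pvalb3 and pvalb4, parvalbumins that bind calcium in fast fibres, were higher. The gene pvalb3 was at 332, 138 and 395 CPM at 35 dpf and 3813, 1934 and 2745 CPM at 45 dpf. In pvalb3 the log2 fold change came to 3.30 ± 0.49 SE (adjusted p = 0.0266 by edgeR and 1.16e-06 by DESeq2). The gene pvalb4 was at 1836, 926 and 1876 CPM at 35 dpf and 6945, 4694 and 5701 CPM at 45 dpf. In pvalb4 the log2 fold change came to 1.90 ± 0.39 SE (adjusted p = 0.0442 by edgeR and 9.48e-04 by DESeq2). The gene myhz1.1, a fast myosin heavy chain, was lower at 6430.2, 4689.8 and 6740.0 CPM at 35 dpf and 1083, 150.4 and 516 CPM at 45 dpf. In myhz1.1 the log2 fold change came to -3.35 ± 0.72 SE (adjusted p = 0.0491 by edgeR and 7.75e-04 by DESeq2). The gene mylpfb, a light chain, was at 50.6, 30.2 and 38.2 CPM at 35 dpf and 5.54, 1.04 and 1.58 CPM at 45 dpf. In mylpfb the log2 fold change came to -3.88 ± 0.62 SE (adjusted p = 0.0288 by edgeR and 2.76e-05 by DESeq2). C45D-1 was the highest 45 dpf library in all 4 genes. Of the fast muscle list, 85 of 86 members had enough counts, 2 were called higher and 2 lower, and the unadjusted p was at most 0.05 in 4 higher and 10 lower members, or in 2 and 7 of 85 without C45D-3, with a median of -0.16 that became 0.03 with library totals as the only scaling, and the myhz1 copies are near-identical. Of the slow and cardiac muscle list, 31 of 32 members had enough counts, 0 were called higher and 1 lower, and the unadjusted p was at most 0.05 in 1 higher and 11 lower members, or in 1 and 6 of 31 without C45D-3, the one called being tnnc1a, the cardiac troponin C, at 8.33, 4.26 and 6.1 CPM at 35 dpf and 1.66, 1.36 and 2.08 CPM at 45 dpf. In tnnc1a the log2 fold change came to -1.86 ± 0.34 SE (adjusted p = 0.0368 by edgeR and 0.00455 by DESeq2).

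In blood the embryonic globins that were called fell. The gene hbbe2, an embryonic beta globin, was at 69.6, 140.5 and 99.1 CPM at 35 dpf and 13.5, 2.47 and 4.82 CPM at 45 dpf. In hbbe2 the log2 fold change came to -3.90 ± 0.66 SE (adjusted p = 0.0315 by edgeR and 2.47e-05 by DESeq2). The gene hbae5, its alpha partner, was at 67.3, 109 and 77.3 CPM at 35 dpf and 11.6, 1.88 and 3.95 CPM at 45 dpf. In hbae5 the log2 fold change came to -3.87 ± 0.66 SE (adjusted p = 0.0319 by edgeR and 4.13e-05 by DESeq2). In both, C45D-1 kept the highest 45 dpf value. In the globin list, 22 of 25 members had enough counts, 0 were called higher and 2 lower, and the unadjusted p was at most 0.05 in 1 higher and 7 lower members, or in 1 and 4 of 25 without C45D-3. The median was -0.68, with 19 of 22 below 0. Red blood cell markers, among them the adult globins hbaa1 and hbba1, overlapped between the ages. They summed to 12817, 6566 and 5226 CPM at 35 dpf and to 6465, 3913 and 5001 CPM at 45 dpf. In the control libraries of all ages, scaled together, hbbe2 was at 632, 535 and 426 CPM at 25 dpf and 0.211, 1.56 and 1.43 CPM at 60 dpf, so its level was lower at each later age sampled. The C60D libraries held little of the liver RNA of a whole fish, as described below, and C60D-3 is a mixture. The 60 dpf values carry that limit.

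In the eye and nerve lists C35D-1 lay far below the other libraries, and its part in the differences between ages was not tested, so counts without it are given too. The lens list averaged -0.662, 4.66 and 3.71 at 35 dpf and 5.46, 4.18 and 5.03 at 45 dpf as mean log2 (CPM + 0.5). Of this list, 71 of 71 members had enough counts, 5 were called higher and 0 lower, and the unadjusted p was at most 0.05 in 17 higher and 0 lower members, or in 12 and 0 of 71 without C45D-3. The counts rose when C35D-1 or C35D-2 was left out. Without C35D-1 the members at an unadjusted p of at most 0.05 were 33 higher and 7 lower in the lens list, 44 higher and 1 lower in the phototransduction list and 22 higher and 0 lower in the synapse list. Without C35D-2, which held eye RNA, they were 25 and 0, 42 and 1, and 51 and 1. The size of the change did not follow these counts. With all 6 libraries the median log2 fold changes of the lens, phototransduction and synapse lists were 1.45, 1.63 and 0.92. Without C35D-1 the medians fell to 0.88, 1.07 and 0.48, and without C35D-2 they rose to 2.43, 2.57 and 1.47. In the phototransduction list with all 6 libraries, 78 of 81 members had enough counts, 0 were called higher and 0 lower, and the unadjusted p was at most 0.05 in 10 higher and 1 lower members, or in 3 and 0 of 78 without C45D-3.

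Of the 12 genes drawn in the same way for the largest increase, crygs1, crygs3, crygs4 and crybb3 belong to the lens list and krt95, tgm1l2, sult2st3 and cyp8b1.3 stand above. Of the others, jac6, of the jacalin lectin family, was at 0, 1.75 and 0.441 CPM at 35 dpf and 15.6, 20.5 and 17.7 CPM at 45 dpf. In jac6 the log2 fold change came to 4.49 ± 0.82 SE (adjusted p = 0.036 by edgeR and 6.11e-04 by DESeq2). The gene saxo2, a microtubule gene of the axoneme, was at 0.0877, 0.175 and 0.0735 CPM at 35 dpf and 0.871, 13 and 7.62 CPM at 45 dpf. In saxo2 the log2 fold change came to 5.83 ± 1.13 SE (adjusted p = 0.0398 by edgeR and 2.74e-04 by DESeq2). The gene tuba7l, of the tubulin family, was at 1.23, 1.28 and 2.72 CPM at 35 dpf and 5.46, 75.3 and 45.4 CPM at 45 dpf. In tuba7l the log2 fold change came to 4.59 ± 0.96 SE (adjusted p = 0.0461 by edgeR and 1.77e-04 by DESeq2). The gene ntrnl3 was at 0, 2.86 and 1.91 CPM at 35 dpf and 34.7, 30.2 and 34.1 CPM at 45 dpf. In ntrnl3 the log2 fold change came to 4.31 ± 0.82 SE (adjusted p = 0.0379 by edgeR and 0.148 by DESeq2).

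Within the lens list the gamma-S crystallins differed between the ages in the libraries that held eye RNA as well. The gene crygs3, a structural protein of the lens, was at 0, 1.98 and 0.441 CPM at 35 dpf and 68.7, 98.5 and 87.9 CPM at 45 dpf. In crygs3 the log2 fold change came to 6.59 ± 0.90 SE (adjusted p = 0.0234 by edgeR and 0.00458 by DESeq2). The gene crygs4 was at 0, 0.934 and 0.0735 CPM at 35 dpf and 28.6, 77.4 and 58.7 CPM at 45 dpf. In crygs4 the log2 fold change came to 7.14 ± 0.91 SE (adjusted p = 0.0218 by edgeR and 0.00329 by DESeq2). The gene crybb3, a beta crystallin, was at 1.23, 5.43 and 0.956 CPM at 35 dpf and 67.4, 112 and 104 CPM at 45 dpf. In crybb3 the log2 fold change came to 5.18 ± 0.71 SE (adjusted p = 0.0234 by edgeR and 6.46e-09 by DESeq2). C35D-2 and C35D-3, whose lens markers summed to 239.7 and 123 CPM, lay far below every 45 dpf library in these genes, where the markers summed to 436, 349.5 and 401 CPM. The gene cryabb, a small heat shock protein of lens and other tissues, was at 1.23, 1.63 and 1.1 CPM at 35 dpf and 8.39, 15.5 and 12.7 CPM at 45 dpf. In cryabb the log2 fold change came to 3.19 ± 0.32 SE (adjusted p = 0.0175 by edgeR and 1.00e-07 by DESeq2). In this gene C35D-1 lay inside the range of its group. The gamma crystallins are a family of close copies, so the split of reads between them is uncertain.

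In the synapse and neurotransmission list, 113 of 122 members had enough counts, 4 were called higher and 0 lower, and the unadjusted p was at most 0.05 in 12 higher and 1 lower members, or in 7 and 0 of 114 without C45D-3, and 3 of the 4 members called encode myelin proteins. The gene mpz was at 72.8, 64.3 and 102 CPM at 35 dpf and 195, 182 and 182 CPM at 45 dpf. In mpz the log2 fold change came to 1.22 ± 0.21 SE (adjusted p = 0.0334 by edgeR and 0.00329 by DESeq2). The gene plp1b was at 36.3, 41.4 and 50.7 CPM at 35 dpf and 84.1, 84.8 and 85.6 CPM at 45 dpf. In plp1b the log2 fold change came to 0.99 ± 0.17 SE (adjusted p = 0.0319 by edgeR and 0.00569 by DESeq2). The gene mbpa was at 168, 181 and 264 CPM at 35 dpf and 453, 403 and 420.5 CPM at 45 dpf. In mbpa the log2 fold change came to 1.05 ± 0.22 SE (adjusted p = 0.0485 by edgeR and 0.0153 by DESeq2). C35D-1 was close to C35D-2 in each, unlike in the neuron markers, which summed to 63.6, 336 and 201 CPM at 35 dpf and 485, 263 and 353 CPM at 45 dpf. The other member called was slc6a11a, a GABA transporter, at 5, 5.13 and 7.86 CPM at 35 dpf and 16, 20.9 and 18 CPM at 45 dpf. In slc6a11a the log2 fold change came to 1.61 ± 0.23 SE (adjusted p = 0.0263 by edgeR and 9.81e-04 by DESeq2).

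In the cell cycle list the share called lower was below the 3.55% of all genes, but 113 of 120 members tested lay below 0 in log2 fold change. At an unadjusted p of at most 0.05, 13.7% of all genes were lower, or 8.65% without C45D-3, both smaller shares than in this list. Of its genes, 120 of 122 members had enough counts, 0 were called higher and 2 lower, and the unadjusted p was at most 0.05 in 0 higher and 51 lower members, or in 0 and 20 of 121 without C45D-3, with a median of -0.77, and leaving out single libraries gave 20 to 72 lower at that p, the lowest without C45D-1 or C45D-3 and the highest without C35D-1. C35D-2, the library with the most oocyte RNA, was also the highest in this list, at 4.23 against 3.21 and 3.18 in C35D-1 and C35D-3 as mean log2 (CPM + 0.5), and without it 27 members were lower and the median was -0.35. The part of the oocytes in it was not tested. The gene dhfr, which supplies folate for thymidine synthesis, was at 14.3, 12 and 7.64 CPM at 35 dpf and 3.01, 4.61 and 4.03 CPM at 45 dpf. In dhfr the log2 fold change came to -1.54 ± 0.30 SE (adjusted p = 0.0398 by edgeR and 0.0197 by DESeq2). The gene tyms, thymidylate synthase, was at 6.66, 12.9 and 9.48 CPM at 35 dpf and 3.48, 4.03 and 2.23 CPM at 45 dpf. In tyms the log2 fold change came to -1.58 ± 0.34 SE (adjusted p = 0.0497 by edgeR and 0.0344 by DESeq2). The gene ccna1, a cyclin of germ cells, was at 18.8, 122 and 3.6 CPM at 35 dpf and 0.158, 1.04 and 0.144 CPM at 45 dpf. In ccna1 the log2 fold change came to -6.67 ± 1.54 SE (adjusted p = 0.0603 by edgeR and 0.00718 by DESeq2). The 35 dpf libraries had the order seen in the egg coat genes.

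The DNA repair genes of the Fanconi anemia list gave no call. Of these, 41 of 45 members had enough counts, 0 were called higher and 0 lower, and the unadjusted p was at most 0.05 in 0 higher and 6 lower members, or in 0 and 1 of 42 without C45D-3, with a median of -0.36. With 1 library left out, 0 to 2 were higher and 1 to 9 lower at that p, the most lower without C35D-1, and the median was -0.03 without C35D-2. Of the ribosomal protein list, 81 of 81 members had enough counts, 0 were called higher and 1 lower, and the unadjusted p was at most 0.05 in 0 higher and 1 lower members, or in 0 and 1 of 81 without C45D-3. Of the ribosome biogenesis list, 92 of 92 members had enough counts, 0 were called higher and 0 lower, and the unadjusted p was at most 0.05 in 1 higher and 19 lower members, or in 0 and 8 of 92 without C45D-3. Of the mitochondrial respiration list, 72 of 72 members had enough counts, 0 were called higher and 1 lower, and the unadjusted p was at most 0.05 in 0 higher and 6 lower members, or in 0 and 4 of 72 without C45D-3, with a median of -0.18 that became 0.01 with library totals as the only scaling. Called were rps27l and cox6a1, and the shares of the ribosomal and respiratory lists were below those of all genes.

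In the amino acid stress and aminoacyl-tRNA synthetase list, 37 of 38 members had enough counts, 0 were called higher and 4 lower, and the unadjusted p was at most 0.05 in 2 higher and 9 lower members, or in 1 and 6 of 37 without C45D-3. The gene rars1, which charges tRNA with arginine, was at 46.3, 51.3 and 45.7 CPM at 35 dpf and 23.4, 26.6 and 25.8 CPM at 45 dpf. In rars1 the log2 fold change came to -0.92 ± 0.13 SE (adjusted p = 0.0263 by edgeR and 0.00312 by DESeq2). The gene shmt2, the mitochondrial serine hydroxymethyltransferase, was at 14.4, 12.6 and 14 CPM at 35 dpf and 6.41, 7.21 and 6.04 CPM at 45 dpf. In shmt2 the log2 fold change came to -1.06 ± 0.16 SE (adjusted p = 0.0276 by edgeR and 0.0213 by DESeq2). The gene ddit4, a stress-induced inhibitor of growth signalling, was at 13.2, 19.2 and 15.5 CPM at 35 dpf and 7.52, 7.92 and 8.7 CPM at 45 dpf. In ddit4 the log2 fold change came to -0.99 ± 0.19 SE (adjusted p = 0.0387 by edgeR and 0.0238 by DESeq2). The other member called was lars1b, of the leucine enzyme. The libraries of each age lay close together in rars1 and shmt2.

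Hormone genes changed singly. In the thyroid axis list, 12 of 18 members had enough counts, 1 was called higher and 2 lower, and the unadjusted p was at most 0.05 in 2 higher and 3 lower members, or in 2 and 3 of 13 without C45D-3. The gene thrb, a thyroid hormone receptor, was at 7.19, 8.52 and 9.48 CPM at 35 dpf and 19.5, 20.1 and 18.4 CPM at 45 dpf. In thrb the log2 fold change came to 1.2015 ± 0.16 SE (adjusted p = 0.023 by edgeR and 8.45e-04 by DESeq2). The gene iyd, which recovers iodide, was at 23.5, 18.4 and 21.7 CPM at 35 dpf and 7.36, 3.77 and 4.46 CPM at 45 dpf. In iyd the log2 fold change came to -2.03 ± 0.28 SE (adjusted p = 0.0237 by edgeR and 4.45e-04 by DESeq2). In the glucocorticoid and circadian list, 43 of 43 members had enough counts, 2 were called higher and 2 lower, and the unadjusted p was at most 0.05 in 9 higher and 6 lower members, or in 2 and 5 of 43 without C45D-3. The genes fkbp5 and tsc22d3, which both respond to glucocorticoids in mammals, differed in direction. The gene fkbp5 was at 10.1, 18.1 and 17.1 CPM at 35 dpf and 54, 38.2 and 42.5 CPM at 45 dpf. In fkbp5 the log2 fold change came to 1.57 ± 0.26 SE (adjusted p = 0.0311 by edgeR and 0.00157 by DESeq2). The gene tsc22d3 was at 98.9, 69 and 85.6 CPM at 35 dpf and 37.4, 39.9 and 43.7 CPM at 45 dpf. In tsc22d3 the log2 fold change came to -1.07 ± 0.18 SE (adjusted p = 0.0316 by edgeR and 0.00601 by DESeq2).

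The gene hlfb, a circadian transcription factor, was called higher and nfil3-2, a repressor of related sites, lower. Of the heat shock list, 42 of 42 members had enough counts, 2 were called higher and 0 lower, and the unadjusted p was at most 0.05 in 6 higher and 7 lower members, or in 6 and 3 of 42 without C45D-3. The gene serpinh1b, a collagen chaperone, was at 107, 114 and 118 CPM at 35 dpf and 202, 193 and 198 CPM at 45 dpf. In serpinh1b the log2 fold change came to 0.81 ± 0.14 SE (adjusted p = 0.0344 by edgeR and 0.00204 by DESeq2). The other member called was cryabb. Of the scale, tooth and bone list, 48 of 56 members had enough counts, 0 were called higher and 1 lower, and the unadjusted p was at most 0.05 in 6 higher and 11 lower members, or in 3 and 5 of 50 without C45D-3, and of the pigment cell list, 29 of 34 members had enough counts, 0 were called higher and 2 lower, and the unadjusted p was at most 0.05 in 1 higher and 5 lower members, or in 0 and 4 of 31 without C45D-3. The gene bglap, osteocalcin of bone, was at 15.4, 11.6 and 28 CPM at 35 dpf and 41.9, 47.5 and 49.2 CPM at 45 dpf and was not called. In bglap the log2 fold change came to 1.33 ± 0.32 SE (edgeR adjusted p = 0.0656). The gene omd, a small matrix proteoglycan, was the bone list member called lower, at 27.4, 29.8 and 44.1 CPM at 35 dpf and 11.5, 13.7 and 12 CPM at 45 dpf. In omd the log2 fold change came to -1.45 ± 0.22 SE (adjusted p = 0.0265 by edgeR and 0.00237 by DESeq2). The gene gpnmb, a membrane protein of pigment cells, was called lower at 72.6, 59.7 and 68 CPM at 35 dpf and 26.3, 37.1 and 33.4 CPM at 45 dpf. In gpnmb the log2 fold change came to -1.05 ± 0.18 SE (adjusted p = 0.0326 by edgeR and 0.00971 by DESeq2). The gene xdh, used in pteridine pigment synthesis and in purine breakdown, was at 50.8, 38.3 and 51.9 CPM at 35 dpf and 13.2, 18.9 and 13.7 CPM at 45 dpf. In xdh the log2 fold change came to -1.62 ± 0.21 SE (adjusted p = 0.022 by edgeR and 3.24e-04 by DESeq2).

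**Figure D4:**
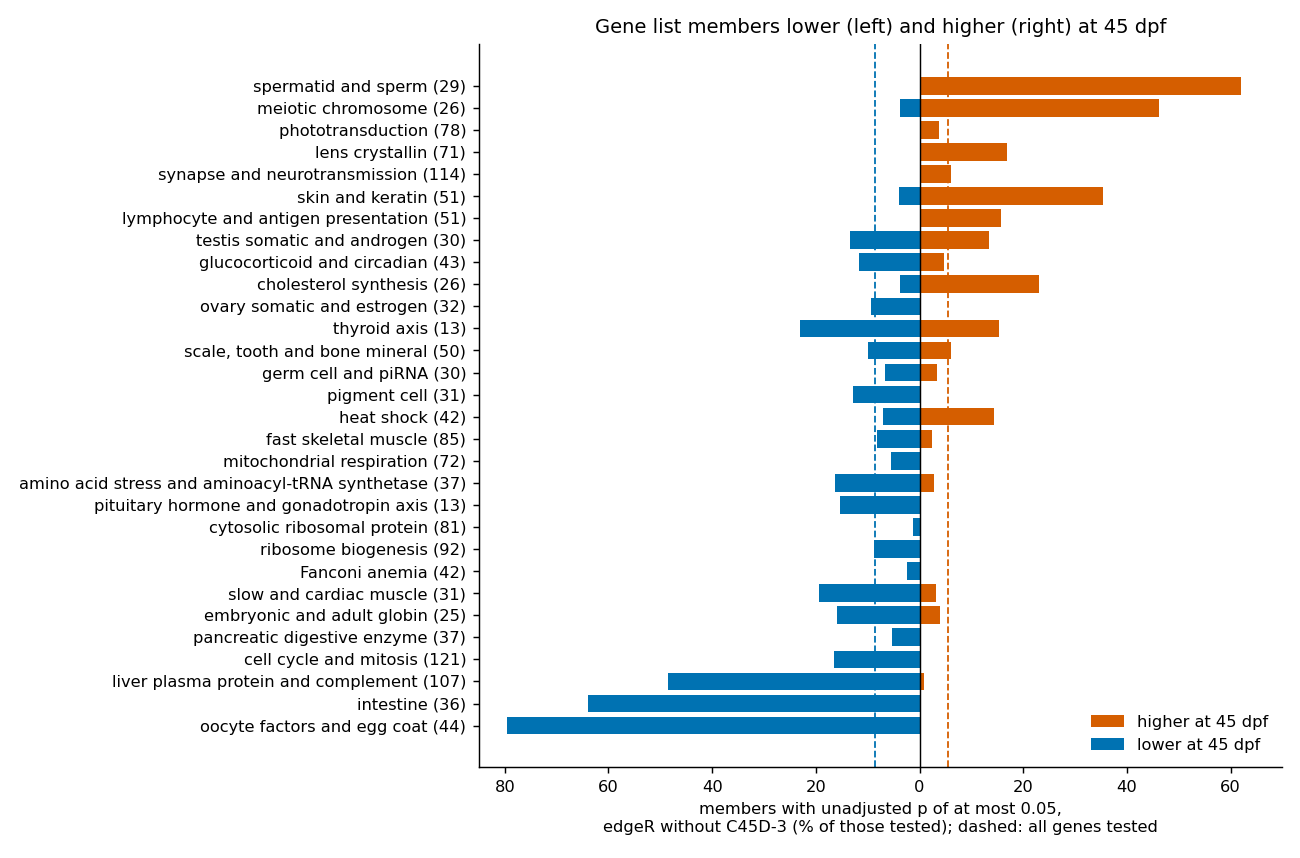
Share of the members of each gene list that were lower (blue, to the left) or higher (orange, to the right) at 45 dpf at an unadjusted p of at most 0.05 by edgeR without C45D-3, with the number tested in brackets. The vitellogenin list, with 3 members tested, is left out. The dashed lines mark all genes tested, 8.65% lower and 5.51% higher; the oocyte, intestine and liver lists reach farthest to the left and the sperm, meiotic and skin lists farthest to the right.

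The control libraries of 25 and 60 dpf, scaled together with all 21 libraries, place the interval among the other ages, as levels with no test. The C60D libraries, T45D-3 and T60D-2 are labelled whole fish as well, but their liver list averaged between 0.59 and 1.26 on the log2 (CPM + 0.5) scale, against at least 4.57 in the other 16 libraries, so liver transcripts that a whole fish should hold were nearly absent from these 5. The oocyte list averaged 0.28, 0.57 and 0.03 at 25 dpf, 3.45, 5.46 and 1.87 at 35 dpf, 0.03, 0.28 and 0.26 at 45 dpf and 0.07, 0.64 and 0.21 at 60 dpf as mean log2 (CPM + 0.5), so among the control libraries those of 35 dpf alone were raised. Oocyte RNA was near absent from the 45 and 60 dpf libraries. In the study's sex counts males were the minority of the control fish, but the sex of the fish in these libraries is not given. The part of the sex of the fish pooled, and of the tissue sampled, in these levels was not tested. The sperm list averaged 0.44, 0.50 and 0.71 at 25 dpf and -0.02, 4.13 and 2.91 at 60 dpf, with C60D-2 high, C60D-1 low and C60D-3 their mixture. The gene insl3 was at 0.0702, 109.9 and 38.2 CPM in the C60D libraries.

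The gene sult2st3 was at 5.63, 4.44 and 8.59 CPM at 25 dpf, 7.09, 6.55 and 5.65 at 35 dpf, 169, 188 and 181 at 45 dpf and 1327, 574 and 946 at 60 dpf on this scale. The gene hsd17b7 took the same course, with 10.4, 10.3 and 9.77 CPM at 25 dpf, 8.81, 9.36 and 11.6 at 35 dpf, 59.6, 53.3 and 51.2 at 45 dpf and 1142, 275 and 776 at 60 dpf, and cyp8b1.2 reached 319.7, 133 and 226 CPM at 60 dpf. The liver list averaged 5.90, 6.54 and 6.29 at 45 dpf and 0.59, 1.26 and 0.79 at 60 dpf, so these 3 genes were highest in the control libraries that held the least liver RNA. The gene gstk4, of the glutathione S-transferase kappa family, shared the course, at 5.63, 2.52 and 4.72 CPM at 25 dpf, 14.6, 4.65 and 8.69 at 35 dpf, 101, 138 and 122 at 45 dpf and 339, 541 and 403 at 60 dpf. In gstk4 the log2 fold change came to 3.61 ± 0.44 SE (adjusted p = 0.0214 by edgeR and 3.56e-08 by DESeq2).

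**Figure D5:**
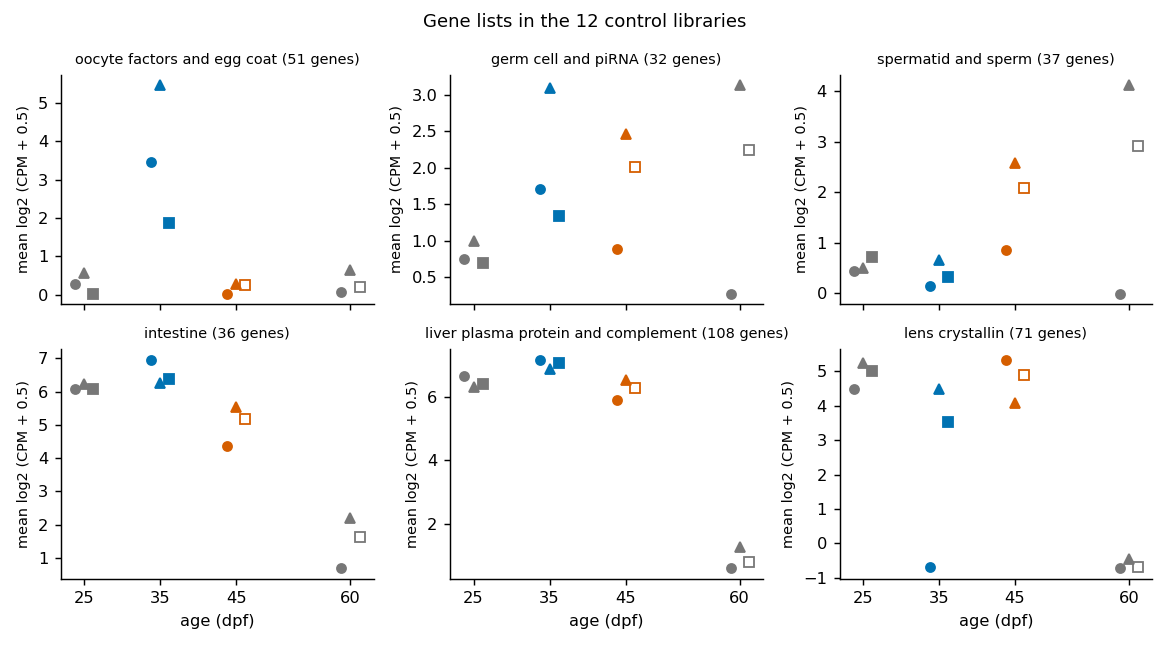
Mean log2 (CPM + 0.5) of 6 gene lists in the 12 control libraries against age in dpf, with 35 dpf in blue, 45 dpf in orange, the other ages in grey, and C45D-3 and C60D-3 open. The oocyte list is high at 35 dpf alone, and the lens list is low in C35D-1 and in all C60D libraries. The intestine and liver lists are lower at 45 than at 35 dpf, but the liver list at 45 dpf overlaps its 25 dpf values (6.66, 6.31 and 6.41). Both are lowest at 60 dpf, in libraries from which liver transcripts were nearly absent.

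Whether fish returned from heat changed differently over the same ages was tested as the difference between T45D minus T35D and C45D minus C35D in 12 libraries. Of 21619 genes, edgeR called 0 higher and 0 lower, the smallest adjusted p being 0.314, and 978 (4.52%) and 1159 (5.36%) had an unadjusted p of at most 0.05. DESeq2 called 31 and 8. Without T45D-3 edgeR called 2 higher and 0 lower, and without C45D-3 0 and 0. The heated libraries differed widely among themselves: the oocyte list averaged 0.73, 8.24 and 8.33 in T35D and -0.01, 7.94 and 0.80 in T45D on the scale above. The gene nr0b2a was at 4.16, 1.93 and 4.71 CPM in T35D and 12.5, 5.5 and 0.273 CPM in T45D, against 69.4, 35.9 and 55.9 and 1.17, 2.02 and 2.62 CPM in the control fish, the heated change exceeding the control change by 5.75 on the log2 scale (edgeR adjusted p = 0.502). The gene sult2st3 was at 4.44, 6.42 and 8.76 CPM in T35D and 17.5, 27.14 and 422 CPM in T45D, with T45D-3, a library at the bottom of the liver list (0.89), above both others.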

How the data were processed

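Polyadenylated RNA was sequenced on the BGISEQ-500. According to the labels, the submitters' processing notes and the methods, the authors filtered the reads, aligned them with HISAT2 2.0.4 to GRCz11 and with Bowtie2 2.2.5 to its coding genes, and estimated expression with RSEM 1.2.12. They deposited 1 table with an expected count (RSEM's estimated count) and an FPKM value for each of 26225 genes in 21 libraries. Of the deposited expected counts 10.6% were not whole, and all were rounded before use. The FPKM values made by the authors entered no test. No strand setting is given in the sources used here. Entrez IDs were paired with symbols for 24087 genes through a RefSeq table of another assembly, GRCz12tu, used for names only.

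C45D was compared with C35D by edgeR 4.0.16 in R 4.3.3 (TMM scaling, filterByExpr, quasi-likelihood F-test, adjusted p of at most 0.05 by Benjamini-Hochberg). The SE is the log2 fold change divided by the square root of F. DESeq2 1.42.0 was an alternative. The procedure was tested on simulated data. Expected counts of 3 or fewer in a group were treated as at the floor. The floor covers counting error only.

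The groups, gene lists and genes were chosen with earlier results of these data known. Named genes were the sex and germ cell genes of a list, up to 4 members of each list with the smallest p whose ages did not overlap, and the 12 called genes with the largest change in each direction that had a mean of at least 5 CPM in the higher group. The choice of these 12 left out clone and locus names and genes whose ages overlapped. Of each list a few of these are described. Alternatives were DESeq2, its size factors, library totals as the only scaling, no filter or at least 10 counts in every library, a replicate block, the sequencing yield class of the study's read statistics as a covariate, wider sets of libraries and each library left out. Alternatives that left out C45D-3 under DESeq2, library totals or the wider sets were added after the data were seen.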

Additional observations from a re-analysis of the deposited data

How the results depend on the processing

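Against the 310 genes higher and 733 lower at 45 dpf, DESeq2 called 1093 and 1691 (309 and 732 of them shared), an unadjusted p of at most 0.05 gave 1997 and 2831, library totals as the only scaling gave 19 and 34, the sequencing yield class as a covariate 168 and 465, and the fit of all 21 libraries 0 and 0. Leaving out 1 library gave 1 to 322 higher and 0 to 967 lower. Of the alternatives added after seeing the data, library totals without C45D-3 gave 2 and 0, the control fit without C45D-3 and C60D-3 gave 14 and 10, and all libraries without these gave 0 and 0. DESeq2's size factors, no filter, at least 10 counts in every library, a 2-fold minimum, the fit of 12 control libraries and DESeq2 without C45D-3 kept both counts within 1.5 times. The genes called were not all the same. Of the 310 and 733, DESeq2's size factors also called 298 and 668. At least 10 counts in every library kept 255 and 607, and the fit of 12 control libraries 209 and 555. None of the genes called had the opposite sign under any of these settings, which share libraries with the test that made the calls. The causes were not tested.

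Deviations of same-numbered libraries correlated at -0.15, -0.05 and -0.08, and no C35D library correlated best with its own number. Because C45D-3 is a mixture of the other C45D libraries, these values cannot decide whether the replicate numbers of the labels pair the libraries. The replicate block gave 4 genes higher and 23 lower.

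For the difference between heated and control fish, 0 genes higher and 0 lower became 31 and 8 under DESeq2 and 978 and 1159 at an unadjusted p of at most 0.05, and leaving out 1 library gave 0 to 2 higher and 0 to 0 lower. The log2 fold changes that changed sign belonged to genes that were not called. That of dazl was -0.39 with the yield class, -0.033 without C35D-3 and -0.20 without C45D-2, and 1.87 at most with 1 library left out. That of ddx4 was 0.019 with library totals, 0.021 with library totals and no C45D-3, 0.56 without C35D-2 and 0.38 without C45D-1, and -0.74 at least with 1 library left out. That of piwil1 was -0.44 with the yield class and -0.12 without C45D-2, and 1.19 at most with 1 library left out. That of sox9a was 0.015 with library totals, 0.070 without C35D-3 and 0.0037 without C45D-1, and -0.36 at least with 1 library left out.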
